A study of Homo sapiens with 5 samples.

Results

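Antisense transcripts are described here that RPE1 cells express at a measurable level. They are the genes of the deposited count table whose symbol ends in -AS and a digit, the name given to an RNA read from the strand opposite to the gene named before it. Of 26485 genes in the table, 979 carry such a name, 241 of these had no count in any library, and 327 had at least 50 counts summed over the 5 libraries. The 300 with the largest sums were kept, and each was compared with the gene it is named for, called its sense partner. The sums chose the members and are given only as a description. They reached 45138 for LRRC75A-AS1. The last members inside the limit were TONSL-AS1 with 62 counts and TGFB2-AS1 with 61, and C1QTNF9B-AS1 and CYP1B1-AS1, also with 61 each, fell outside it. At the minimum, ZBED3-AS1 and SEPT7-AS1 had 50 counts, and TNKS2-AS1 and LCMT1-AS1 had 49.

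RPE1 cells are a widely used line from human retinal pigment epithelium, labelled wild type here, and 5 libraries of poly-A RNA were made after 18 h of treatment. The cells received the solvent DMSO (2 libraries), 0.2 μM doxorubicin (2 libraries) or 0.34 μM doxorubicin (1 library). One field of the labels and the study's methods write the doses as 200 and 340 uM. The smaller unit used here is that of the sample titles and of the rest of the study's text. Doxorubicin is an anthracycline that intercalates into DNA, traps topoisomerase II on it and evicts histones. The library totals were between 23773061 and 36725345 counts. Of the defining genes of pigment epithelium, RPE65, RLBP1, LRAT and TYR stayed under 1 CPM (counts scaled to the size of the library) in every library, while BEST1 and PMEL reached at most 3.91 CPM, MITF was between 29.1 and 56.7 CPM and OTX2 between 23.5 and 29.4 CPM. The keratins KRT8 and KRT18 were between 238 and 661 CPM. Of 5 markers of other cell types, CD3E was at 0, EPCAM and ALB reached at most 0.166 CPM, PECAM1 at most 0.457 CPM, and PTPRC was between 0.191 and 0.274 CPM in DMSO and between 0.967 and 2.20 CPM in doxorubicin. The part of such other cells in the results was not tested.

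Antisense RNAs are mostly long noncoding RNAs. Many start at or near the promoter of their sense partner, since active promoters often fire in both directions, and others start inside the partner or beyond its end. A few are known to act on their partner's chromatin, splicing or RNA stability, some act elsewhere in the cell, and for most no role is established. Where exons of an antisense RNA and its partner overlap, reads of the shared bases can be told apart only by strand. The library kit marks the strand, but no source used here gives the strand setting of the counting, so the counts of pairs with overlapping exons are uncertain as a separation of the 2 genes.

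Of the 300 members, 285 are annotated as long noncoding RNA and 3 as protein coding. By their spans in RefSeq and the strands of the annotation, 102 overlap their partner head to head, so that both starts lie in the shared stretch, and 54 overlap it tail to tail. In 77 pairs the genes do not overlap and are divergent, with starts at most 2000 bases apart. A further 41 members lie inside their partner, 11 contain it, 10 lie farther away on the opposite strand and 5 could not be classified. In the GENCODE annotation, exons of 204 members overlap an exon of the partner and exons of 236 overlap an exon of some gene. In 14 members at least 50% of the exon bases lie in partner exons.

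Promoter windows from RefSeq (GRCh38.p14), from 250 bases before to 50 after a start, were found for 226 members. Of these, 63.3% held a GC box (GGGCGG on either strand), beside 67.4% of the partners' windows, 68.8% of those of all genes tested and 44.6% of all windows in the table. CCAAT stood in 31.4% of the members' windows, 36.5% of those of genes tested and 35.7% of all windows. TATAAA stood in 5.75% of members' windows and 5.6% of those of genes tested. The E-box CACGTG stood in 9.29% of members' windows, 9.87% of those of genes tested and 7.43% of all windows. The letters TTTGAA of the cell cycle homology region stood in 7.08%, 9.79% and 15.4%. No member's window held the p53 site searched for, nor did more than 0.0183% of all windows. The median number of CpG dinucleotides was 25 in members' windows, 27 in those of the partners, 26 in those of all genes tested and 14 in all windows. In GC boxes and CpG the members' windows were closer to those of partners and of all genes tested than to the whole table. This likeness was thus not particular to the partners. In 201 pairs both genes had a window, and in 63 of these the windows shared bases.

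The windows below belong to antisense transcripts whose change, or whose contrast with the partner, is described further on. Capitals mark the motifs named above, on either strand. FLG-AS1 (named CCDST in RefSeq; chr1:152189053-152189352, plus strand) holds 2 GC boxes. The windows of EMC3-AS1 (chr3:9986643-9986942, plus strand) and TMPO-AS1 (chr12:98516177-98516476, minus strand) hold none of the motifs. That of UNC5B-AS1 (chr10:71218179-71218478, minus strand) holds a TATA box and 2 CpG. The window of NUP50-AS1 (NUP50-DT in RefSeq; chr22:45163732-45164031, minus strand) shares 243 bases with that of NUP50, and their starts are 144 bases apart. The window of DNAJC9-AS1 (chr10:73247117-73247416, plus strand) shares 211 bases with that of DNAJC9, and their starts are 112 bases apart.
FLG-AS1: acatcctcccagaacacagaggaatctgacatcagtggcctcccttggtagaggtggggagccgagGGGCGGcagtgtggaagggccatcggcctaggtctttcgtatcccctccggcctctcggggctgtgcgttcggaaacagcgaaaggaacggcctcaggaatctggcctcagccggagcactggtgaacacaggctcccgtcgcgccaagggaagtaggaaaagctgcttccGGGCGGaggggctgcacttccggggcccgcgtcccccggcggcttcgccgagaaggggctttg
EMC3-AS1: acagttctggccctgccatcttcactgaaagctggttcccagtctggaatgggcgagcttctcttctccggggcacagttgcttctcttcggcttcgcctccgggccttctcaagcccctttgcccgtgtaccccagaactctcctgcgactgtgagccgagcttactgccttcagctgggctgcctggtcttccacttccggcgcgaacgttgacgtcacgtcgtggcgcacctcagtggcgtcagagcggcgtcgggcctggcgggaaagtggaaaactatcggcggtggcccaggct
TMPO-AS1: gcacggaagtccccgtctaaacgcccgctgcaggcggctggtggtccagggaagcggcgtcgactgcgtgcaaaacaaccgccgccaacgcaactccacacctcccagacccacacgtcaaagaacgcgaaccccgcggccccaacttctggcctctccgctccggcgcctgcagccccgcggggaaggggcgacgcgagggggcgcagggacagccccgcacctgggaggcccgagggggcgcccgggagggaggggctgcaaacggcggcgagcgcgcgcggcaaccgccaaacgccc
UNC5B-AS1: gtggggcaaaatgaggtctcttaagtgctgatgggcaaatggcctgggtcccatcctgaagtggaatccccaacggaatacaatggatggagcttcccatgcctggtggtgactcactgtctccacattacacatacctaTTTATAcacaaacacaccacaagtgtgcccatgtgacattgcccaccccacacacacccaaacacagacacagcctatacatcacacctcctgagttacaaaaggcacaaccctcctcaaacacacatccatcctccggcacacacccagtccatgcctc
NUP50-AS1: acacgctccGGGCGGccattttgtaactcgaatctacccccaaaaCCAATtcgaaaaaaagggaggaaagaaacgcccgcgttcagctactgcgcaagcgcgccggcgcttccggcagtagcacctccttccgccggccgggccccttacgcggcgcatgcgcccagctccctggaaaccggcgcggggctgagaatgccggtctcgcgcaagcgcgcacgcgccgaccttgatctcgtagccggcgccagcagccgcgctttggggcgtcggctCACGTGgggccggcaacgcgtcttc
DNAJC9-AS1: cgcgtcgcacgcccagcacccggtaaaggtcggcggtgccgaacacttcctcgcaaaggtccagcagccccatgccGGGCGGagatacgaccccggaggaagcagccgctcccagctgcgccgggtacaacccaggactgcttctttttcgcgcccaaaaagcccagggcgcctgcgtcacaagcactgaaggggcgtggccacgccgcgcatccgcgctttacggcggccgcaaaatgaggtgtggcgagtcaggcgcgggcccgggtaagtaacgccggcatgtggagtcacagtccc

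The first comparison asked which antisense transcripts changed in the 3 doxorubicin libraries against the 2 DMSO libraries. All 300 members passed the filter on low counts. At the study's threshold, an adjusted p under 0.01, 3 members (1%) were called, against 4.02% of all 14187 genes tested. FLG-AS1 and GAS6-AS1 rose, beside 1.29% of all genes, and EMC3-AS1 fell, beside 2.73%. At an adjusted p under 0.05 the members called were 10 higher and 9 lower, 6.33% of them, beside 13.6% of all genes (6.1% higher and 7.48% lower), and at an unadjusted p under 0.05 they were 68, or 22.7%, beside 30.8%. DESeq2 at 0.01 called 12 higher and 8 lower, beside 14.6% of all genes. With edgeR the shares of members called were thus below those of all genes at each of these thresholds. The members were also lowly counted, with a median of 2.03 CPM beside 22.0 CPM over all genes and 40.8 CPM over partners (CPM is not corrected for gene length), and 262 of the 300 fell in the lowest of 3 equal classes of all genes by mean CPM. In that class 1.69% of all genes and 1.15% of the members were called. The median standard error of a member's log2 fold change was 0.38, beside 0.23 over all genes.

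The members' log2 fold changes had a median of 0.13 and quartiles of -0.26 and 0.64, beside a median of 0.013 over all genes tested. Within the lowest of the 3 classes by CPM the median was 0.19 for the members and 0.13 for all genes. By direction alone 174 members were higher and 126 lower, and 35 were at least 2-fold higher and 15 at least 2-fold lower, most of them short of the test. The doxorubicin libraries lay wholly apart from the DMSO libraries in CPM for 141 members (47%), 89 above and 52 below, beside 47.7% of all genes. Of all 14187 genes tested, 3454 lay above and 3313 below. Within the lowest class by CPM the shares lying apart were 47.7% of the members and 41.4% of all genes. As another group of noncoding names, 140 LINC genes with sums as large as the last member's had a median log2 fold change of 0.18. The plot of fold change against level shows this wide spread at low counts.

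**Figure D1:**
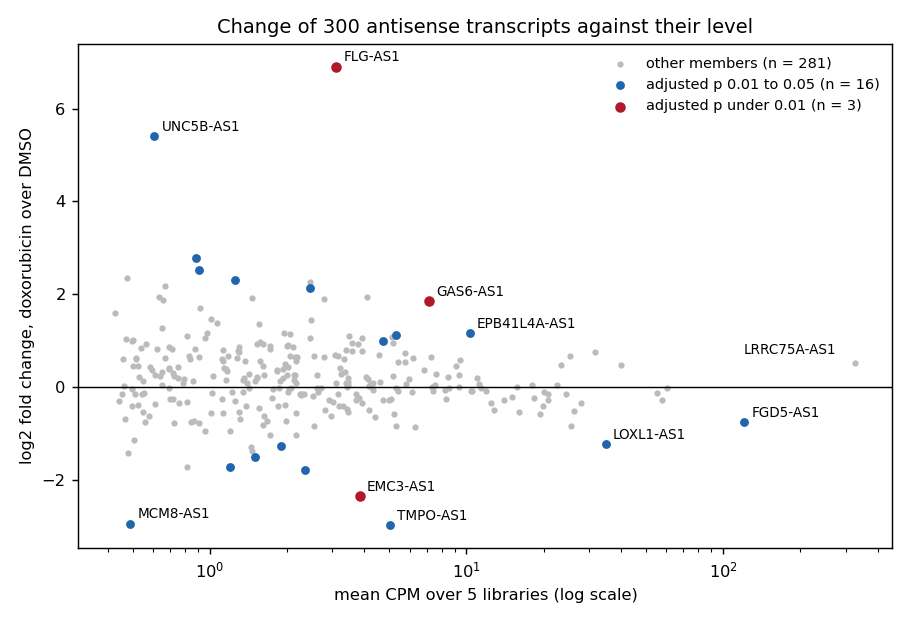
Each point is 1 of the 300 antisense transcripts, with its mean CPM over the 5 libraries (log scale) on the x axis and its log2 fold change, doxorubicin over DMSO, on the y axis. The 3 transcripts at an adjusted p under 0.01 (red) and 16 between 0.01 and 0.05 (blue) lie on both sides of 0, and FLG-AS1 at 6.90 and UNC5B-AS1 at 5.41 stand above the others.

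FLG-AS1 was counted once in each DMSO library, 67 and 206 times at 0.2 μM and 156 times at 0.34 μM. The transcript was close to absent in both DMSO libraries and present in all 3 treated ones. With 2 counts in DMSO together and 429 in doxorubicin, it met the count rule only through the treated libraries. Its rise is thus in part built into the choice of members, and its ratio and test are given as a description. On counts together the ratio was 129 (95% interval 35.4 to 1067, counting error only), and the fitted log2 fold change was 6.90 with an SE of 0.85 (edgeR's quasi-likelihood test, Benjamini-Hochberg adjusted p = 0.00473). In bulk RNA, more cells that make a transcript and more of it per cell cannot be told apart, here and for every result below. FLG-AS1 (chr1:152189303-152366692 in GRCh38.p14) overlaps the genes of filaggrin (FLG), hornerin (HRNR) and filaggrin 2 (FLG2), proteins of the cornified layer of skin. FLG had 0 and 19 counts in DMSO, 398 and 830 at 0.2 μM and 764 at 0.34 μM. HRNR had 0 and 20 in DMSO, then 406, 831 and 922. FLG2 had no count in DMSO and 7, 10 and 15 in doxorubicin. All 4 genes were thus high in the same 3 libraries, with no overlap between the groups. With the same test the adjusted p was 0.0110 for FLG, 0.0106 for HRNR and 0.0239 for FLG2, so that only the antisense transcript passed 0.01. The span and the promoter window are those of RefSeq's CCDST, which lists FLG-AS1 as an older name, while GENCODE holds CCDST and FLG-AS1 as separate genes, so that they may not be the same gene. In GENCODE 10.6% of the exon bases of FLG-AS1 lie in exons of FLG, and what shared reads add to these counts was not tested.

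GAS6-AS1 runs into the 3' end of GAS6, which encodes a ligand of the AXL family of receptor kinases. The transcript (chr13:113815610-113842841) had 69 and 75 counts in DMSO, 244 and 279 at 0.2 μM and 335 at 0.34 μM. In CPM this was 2.79 ± 0.216 (SD, n = 2) in DMSO and 10.1 ± 1.31 (SD, n = 3) in doxorubicin, and every treated library was above both DMSO libraries. Its log2 fold change was 1.85 with an SE of 0.24 (edgeR's quasi-likelihood test, adjusted p = 0.00588). GAS6 itself had 8388 and 8217 counts in DMSO against 18499, 9421 and 21280 in doxorubicin, with a log2 fold change of 0.81 that did not pass (adjusted p = 0.0885, same test). GAS6-AS2, a second antisense transcript of this gene, had 624 and 353 counts in DMSO against 840, 620 and 1129 in doxorubicin, a log2 fold change of 0.66 (adjusted p = 0.143, same test). For TMEM255B, another gene whose span GAS6-AS1 overlaps, the log2 fold change was 0.56 (adjusted p = 0.106, same test).

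EMC3-AS1 lies inside the span of EMC3, a subunit of the membrane complex that inserts proteins into the endoplasmic reticulum. The transcript (chr3:9986893-10007004) had 169 and 214 counts in DMSO, 35 and 46 at 0.2 μM and 40 at 0.34 μM. This was 7.41 ± 1.37 CPM (SD, n = 2) in DMSO against 1.46 ± 0.415 CPM (SD, n = 3) in doxorubicin, with no overlap. It fell by 2.35 on the log2 scale with an SE of 0.33 (edgeR's quasi-likelihood test, adjusted p = 0.00693). EMC3 was higher in all 3 treated libraries, with 636 and 634 counts in DMSO against 1008, 931 and 1436 in doxorubicin, a log2 fold change of 0.67 (adjusted p = 0.0285, same test). The antisense and the sense gene thus moved in opposite directions, with no overlap between groups in either. The GENCODE entry matched to EMC3-AS1 is itself typed as a transcribed unprocessed pseudogene. Of its exon bases, 26.2% lie in exons of some other gene. The span of EMC3-AS1 also holds FANCD2P1, a pseudogene of the DNA crosslink repair gene FANCD2. FANCD2 itself had 933 and 1549 counts in DMSO against 365, 371 and 355 in doxorubicin (log2 fold change -1.88, adjusted p = 0.0101, same test). Whether reads of FANCD2 or its copy add to the count of EMC3-AS1 was not tested.

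None of these calls held in every fit that left out 1 library, and each is named here with its adjusted p by edgeR's quasi-likelihood test. GAS6-AS1 and EMC3-AS1 missed 0.01 whichever of the 5 libraries was left out, at 0.0173 to 0.0308 and at 0.0142 to 0.0370. FLG-AS1 missed it without DMSO replicate 1 (0.0383) or DMSO replicate 2 (0.0384), and in limma voom with all libraries (0.0163).

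Another 16 members were past 0.05 and not past 0.01. In all 19 the groups stood apart in the plot of single libraries, as they did in 47.7% of all genes tested. The 19 were chosen by the test on these same libraries, so their separation adds no support. Among those lower in doxorubicin, TMPO-AS1 starts 653 bases inside TMPO, the gene of a lamin-binding protein of the inner nuclear membrane, and runs out through its start. TMPO-AS1 had 234 and 311 counts in DMSO against 30, 55 and 23 in doxorubicin, a log2 fold change of -2.97 with an SE of 0.50 (edgeR's quasi-likelihood test, adjusted p = 0.0132). MCM8-AS1, at the far end of the gene of the recombination helicase MCM8, had 28 and 25 counts in DMSO against 2, 5 and 4 in doxorubicin (log2 fold change -2.94, adjusted p = 0.0155, same test). FOXD2-AS1, near the forkhead factor gene FOXD2, had 97 and 114 counts against 29, 27 and 47 (log2 fold change -1.78, adjusted p = 0.0118, same test). The counts of all 3 were lower in each treated library than in either DMSO library.

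LOXL1-AS1 and FGD5-AS1 were the most highly counted members past 0.05. LOXL1-AS1 overlaps the start of LOXL1, a crosslinking enzyme of elastic fibres, and had 1599 and 1158 counts in DMSO against 682, 497 and 759 in doxorubicin. Its log2 fold change was -1.23 with an SE of 0.20 (edgeR's quasi-likelihood test, adjusted p = 0.0116). For LOXL1 the log2 fold change was 0.07 (adjusted p = 0.855, same test), and its groups overlapped. FGD5-AS1 had 3929 and 4322 counts in DMSO against 2646, 2146 and 3370 in doxorubicin, a log2 fold change of -0.75 with an SE of 0.14 (adjusted p = 0.0189, same test). FGD5, a GTPase exchange factor gene of endothelium, had at most 4 counts in any library and was not tested. The other members lower at 0.05 were UBL7-AS1 (log2 fold change -1.72), ATP2A1-AS1 (-1.51) and PSMB8-AS1 (-1.26). PSMB8-AS1 starts beside the immunoproteasome gene PSMB8 and overlaps TAP1, the peptide transporter of antigen presentation, which rose with a log2 fold change of 1.65 (adjusted p = 0.00472, same test).

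Among those higher at 0.05, UNC5B-AS1 lies inside UNC5B, a netrin receptor gene, and had 1 and 0 counts in DMSO against 15, 25 and 50 in doxorubicin. The ratio on counts together was 54.0, with a 95% interval of 9.45 to 2157 for counting error (edgeR's quasi-likelihood test, adjusted p = 0.0139). FOXN3-AS1, inside the forkhead factor gene FOXN3, had 12 and 7 counts against 39, 50 and 70 (log2 fold change 2.31, adjusted p = 0.0185, same test). RDH10-AS1, which overlaps the far end of the retinol dehydrogenase gene RDH10, had 8 and 4 against 28, 36 and 54 (log2 fold change 2.53, adjusted p = 0.0212, same test). In these 3 the DMSO counts were few, so the size of the change is known only loosely. UNC5B-AS1, with 1 count in DMSO together and 90 in doxorubicin, also met the count rule only through the treated libraries. Its ratio and test are likewise given as a description. EPB41L4A-AS1 was better counted, with 147 and 159 in DMSO and 304, 375 and 444 in doxorubicin, a log2 fold change of 1.16 with an SE of 0.23 (adjusted p = 0.0213, same test). HIF1A-AS1, which starts 310 bases from the start of the hypoxia factor gene HIF1A, had 8 and 2 counts against 21, 34 and 66 (log2 fold change 2.79, adjusted p = 0.0425, same test). HIF1A was not called, with a log2 fold change of -0.32 (adjusted p = 0.486, same test). The others were PLCE1-AS1 (log2 fold change 2.13), ASMTL-AS1 (1.12) and ST20-AS1 (0.99).

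**Figure D2:**
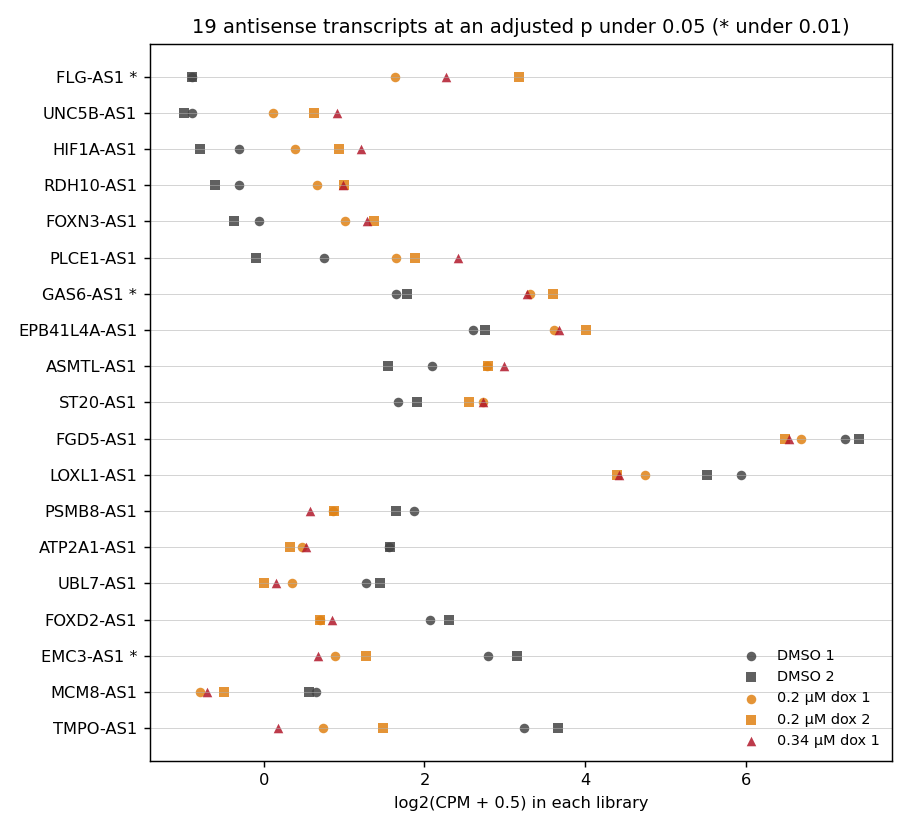
For the 19 antisense transcripts at an adjusted p under 0.05, each symbol is log2(CPM + 0.5) in 1 library, grey for DMSO and coloured for doxorubicin, with circles for replicate 1, squares for replicate 2 and a triangle for 0.34 μM. In every line the 3 treated libraries lie on 1 side of both DMSO libraries, from FLG-AS1 (log2 fold change 6.90) at the top to TMPO-AS1 (-2.97) at the bottom. The transcripts were chosen by the test on these same libraries.

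The 10 most highly counted members were mostly short of the test. LRRC75A-AS1, named SNHG29 in RefSeq and a host of small nucleolar RNAs, had 5085 and 8363 counts in DMSO against 8809, 10323 and 12558 in doxorubicin (log2 fold change 0.51, SE 0.25, adjusted p = 0.225 by edgeR's quasi-likelihood test). PAX8-AS1 was level, with 1635 and 1494 counts against 1640, 1278 and 2299 and a log2 fold change of -0.01 with an SE of 0.15. WAC-AS1 had a log2 fold change of -0.28, SVIL-AS1 of -0.35 and MMP24-AS1 of 0.47. In MAGI2-AS3 the DMSO libraries held 2050 and 973 counts and enclosed the treated ones, at 1253, 1493 and 1784. The DMSO libraries also differed widely in STARD4-AS1, at 853 and 321 against 850, 1289 and 986. OIP5-AS1, an RNA known to bind microRNAs and the RNA-binding protein HuR, had 748 and 894 counts against 569, 587 and 756 (log2 fold change -0.50, adjusted p = 0.0999, same test). Only LOXL1-AS1 and FGD5-AS1 of these 10 passed 0.05.

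The second comparison set 0.34 μM against 0.2 μM, with 1 library at the higher dose that took its spread from the other groups. No member passed 0.01 in edgeR's quasi-likelihood test, in DESeq2 or in limma voom, beside 0.0% of 14745 genes tested. At an unadjusted p under 0.05 there was 1 member, beside 0.183% of all genes. It was TMPO-AS1, named after its value was seen, with 23 counts at 0.34 μM and 30 and 55 at 0.2 μM. The count of FLG-AS1 at 0.34 μM lay between those of the 2 libraries at 0.2 μM, and for GAS6-AS1 the log2 fold change between the doses was -0.19.

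The third comparison set each member beside its sense partner. Of 297 pairs with a partner in the table, 285 had both genes tested. In 171 pairs (60.0%) both genes changed in the same direction, 95 both higher and 76 both lower. In 70 pairs the antisense transcript was higher and the partner lower, and in 44 the reverse held. Among the 285 pairs, 165 antisense transcripts and 139 partners were higher, and the share that unrelated genes would give was not computed. Across the 285 pairs the log2 fold changes had a Pearson correlation of 0.53 and a Spearman correlation of 0.34, given as a description, since pairs share libraries and, where exons overlap, may share reads. Without FLG-AS1 and UNC5B-AS1 the Pearson value was 0.38, so the 2 pairs near 0 in DMSO carried part of it. Without exon overlap between the 2 genes 51 of 84 pairs (60.7%) moved the same way, and with overlap 116 of 196 (59.2%). The same direction was seen in 55.3% of 76 divergent pairs, 62.6% of 99 head-to-head pairs, 57.7% of 52 tail-to-tail pairs and 66.7% of 39 pairs with the antisense inside its partner.

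**Figure D3:**
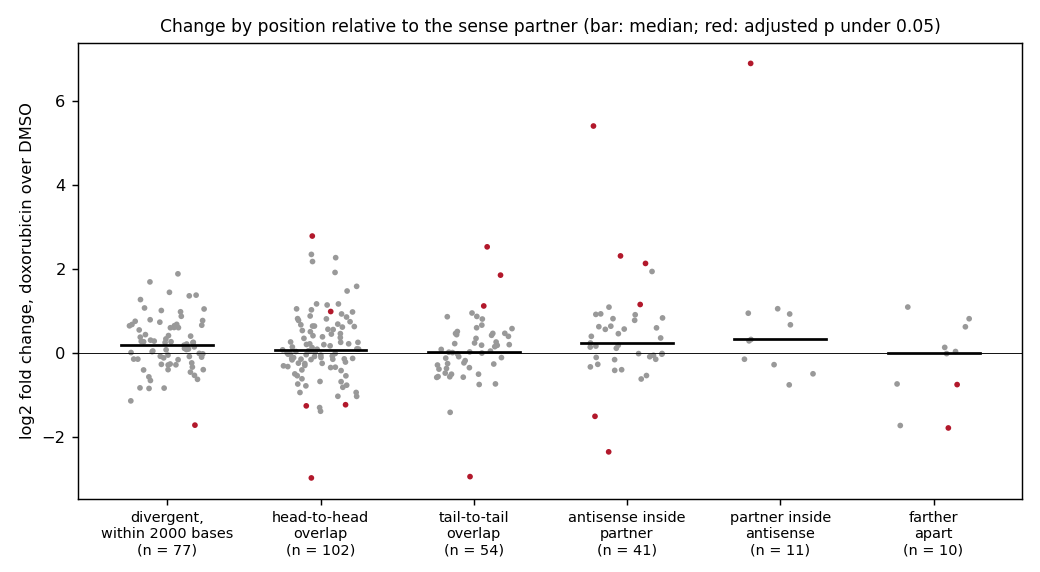
Log2 fold change, doxorubicin over DMSO, of each antisense transcript with a known position by that position relative to the sense partner, with the median of each class as a bar and members at an adjusted p under 0.05 in red. The medians of the 6 classes shown run from 0.01 for transcripts farther from their partner to 0.32 for the 11 that contain it, within a spread of the members that crosses 0 in every class.

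A larger share of the partners than of the antisense transcripts was called. The partners were also more highly counted, with medians of 40.8 CPM against 2.03 CPM. Their median standard error was 0.21, against 0.38 for the antisense transcripts. What level adds to the difference in shares was not tested. Of 293 partners, 282 were tested, and 9 (3.19%) passed 0.01, 3 higher and 6 lower, beside 4.02% of all genes. At 0.05 they were 47 (16.7%, beside 13.6%). In no pair did both genes pass 0.01, and in 8 both passed 0.05. Of these, FLG, UNC5B, RDH10 and ASMTL were higher with their antisense transcripts, and TMPO and MCM8 lower with theirs. EMC3 and PLCE1 moved against theirs. Among the 48 pairs whose partner passed 0.05 the direction was shared in 37 (77.1%), and among the 18 tested pairs whose antisense transcript did, in 10 (55.6%). Both sets were chosen by the test on these same libraries, so nothing is read from these shares.

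**Figure D4:**
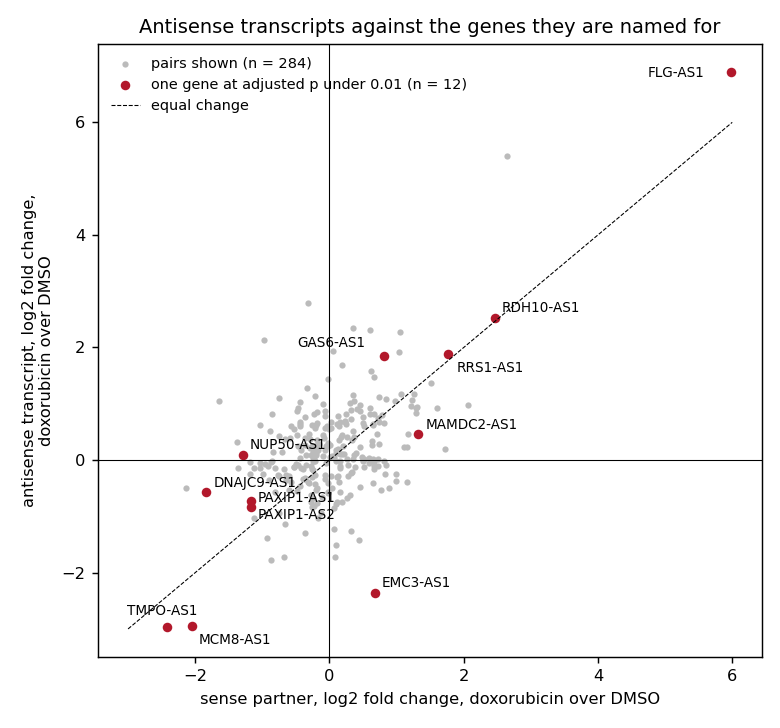
Each point is 1 of 284 pairs, with the log2 fold change of the sense partner on the x axis and that of the antisense transcript on the y axis, and the dashed line marks equal change. The 12 pairs with 1 gene at an adjusted p under 0.01 are red and named by the antisense transcript, among them TMPO-AS1 (-2.97 beside -2.42 in TMPO) near the line and EMC3-AS1 (-2.35 beside 0.67 in EMC3) far from it.

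For the pairs with a called gene, the ratio of antisense to sense was computed in each library as log2 of (member CPM + 0.5) over (partner CPM + 0.5). It is given for 7 pairs in which both genes averaged at least 0.5 CPM in both groups. With 3 against 2 libraries the exact permutation test cannot go below p = 0.1, so no ratio could pass 0.05, and the 7 p-values were also adjusted over the pairs. For GAS6-AS1 and GAS6 the log2 ratio differed by 0.91, with all 3 treated libraries above both DMSO libraries (exact p = 0.2, adjusted 0.28).

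The divergent pairs of NUP50 and DNAJC9, whose shared promoter windows are shown above, had a sense gene that fell and an antisense transcript that was not called. NUP50, a nuclear pore protein gene, fell from 2751 and 3331 counts to 1248, 1200 and 1662 (log2 fold change -1.30, adjusted p = 0.0037 by edgeR's quasi-likelihood test). NUP50-AS1 had 92 and 63 counts in DMSO against 67, 92 and 115 in doxorubicin, overlapping groups with a log2 fold change of 0.10 and an SE of 0.32. The log2 ratio differed by 1.36, and all 3 treated libraries were above both DMSO libraries (exact p = 0.1, adjusted 0.233). DNAJC9, a histone co-chaperone gene, fell from 1953 and 3180 counts to 718, 757 and 894 (log2 fold change -1.83, adjusted p = 0.00581, same test). DNAJC9-AS1 had 51 and 88 counts against 38, 57 and 59, overlapping groups with a log2 fold change of -0.57 and an SE of 0.39. Its log2 ratio to DNAJC9 differed by 1.33, again with no overlap (exact p = 0.1, adjusted 0.233).

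In other pairs the antisense transcript was lower too. TMPO fell from 5105 and 6488 counts to 1141, 1041 and 1385 (log2 fold change -2.42, adjusted p = 0.000796 by edgeR's quasi-likelihood test), and the log2 fold change of TMPO-AS1 was -2.97. Their log2 ratio overlapped between the groups (difference -0.25, exact p = 0.6). The ratio's sign turned to 0.44 with a pseudocount of 2. MCM8 also fell, from 811 and 946 counts to 202, 225 and 271 (log2 fold change -2.05, adjusted p = 0.00166, same test), beside the lower MCM8-AS1. PAXIP1, a BRCT-domain protein gene of the DNA damage response, fell by 1.18 on the log2 scale (adjusted p = 0.00893, same test) and has antisense transcripts at both ends. For PAXIP1-AS1, at its promoter, the log2 fold change was -0.83 (adjusted p = 0.140, same test), and PAXIP1-AS2, at its far end, of -0.74 (adjusted p = 0.314, same test). Their ratios to PAXIP1 differed by 0.43 (exact p = 0.3) and 0.60 (exact p = 0.2).

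**Figure D5:**
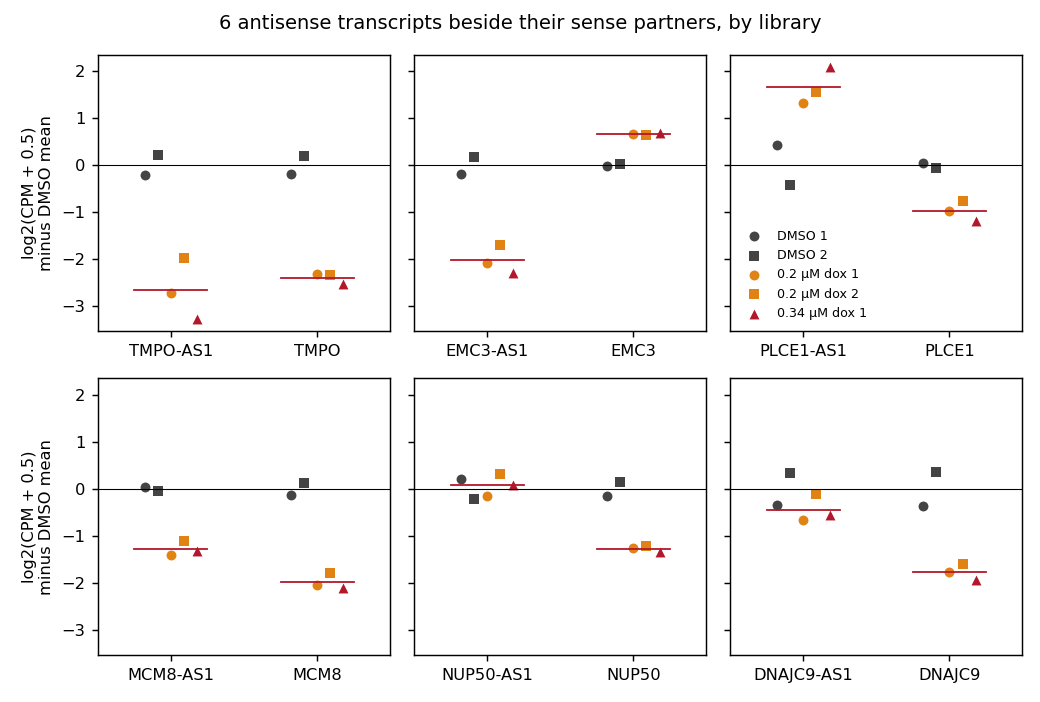
Log2(CPM + 0.5) minus the DMSO mean in each library, for 6 antisense transcripts (left in each panel) and their sense partners (right), with DMSO in grey, doxorubicin coloured and the doxorubicin mean as a line. TMPO-AS1 and TMPO, and MCM8-AS1 and MCM8, lie low in doxorubicin, EMC3-AS1 and PLCE1-AS1 lie opposite to EMC3 and PLCE1, and NUP50 and DNAJC9 lie low beside antisense transcripts with log2 fold changes of 0.10 and -0.57.

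In the opposite pairs EMC3-AS1 was lower and EMC3 higher, and their log2 ratio fell by 2.69 (exact p = 0.1, adjusted 0.233). PLCE1-AS1, inside the phospholipase gene PLCE1, had 31 and 11 counts in DMSO against 68, 77 and 175 in doxorubicin (log2 fold change 2.13, SE 0.53, adjusted p = 0.0438 by edgeR's quasi-likelihood test). PLCE1 had 2658 and 2398 counts in DMSO against 1273, 1379 and 1541 in doxorubicin (log2 fold change -0.98, adjusted p = 0.0136, same test). In GENCODE 40.3% of the exon bases of PLCE1-AS1 lie in exons of PLCE1, and none of those of EMC3-AS1 lie in exons of EMC3. The antisense groups were apart in both pairs, as were the sense groups.

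Of the 3 partners that rose, RDH10 went from 526 and 633 counts to 3296, 2518 and 5013 (log2 fold change 2.46, adjusted p = 0.00124 by edgeR's quasi-likelihood test), and RDH10-AS1 had a log2 fold change of 2.53. RRS1, a ribosome assembly factor gene, went from 1038 and 1107 to 3473, 3611 and 5013 (log2 fold change 1.76, adjusted p = 0.00135, same test). The divergent RRS1-AS1 had 10 and 3 counts in DMSO against 20, 18 and 46 in doxorubicin (log2 fold change 1.89, adjusted p = 0.0906, same test). MAMDC2, a proteoglycan gene, rose with a log2 fold change of 1.32 (adjusted p = 0.00617, same test). MAMDC2-AS1, inside it, had a log2 fold change of 0.46 with an SE of 0.53. The antisense fold changes of the first pairs were thus close to the sense ones, on few antisense counts.

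The members were also grouped with lists of gene symbols, by what their partners are known for, and these lists are not complete. These lists were chosen with earlier results of these data known, so nothing is read from their counts, shares or medians. Of 7 antisense transcripts of cell cycle, replication and sister chromatid genes, none passed 0.01 in edgeR's quasi-likelihood test, and TMPO-AS1 and MCM8-AS1 were lower at 0.05, and both passed 0.01 in DESeq2 (3 members were at an unadjusted p under 0.05). With 7 members these are 28.6% at 0.05 and in DESeq2, and 42.9% unadjusted, beside 13.6%, 14.6% and 30.8% of all genes. The list's median log2 fold change was -0.50, with 5 of 7 lower, beside the median of 0.013 over all genes. Of 11 in the list for matrix, adhesion and cytoskeleton genes FLG-AS1 was called (9.09%, beside 4.02% of all genes) and 8 were higher (median 0.47). The list also holds CD27-AS1, whose partner is not such a gene. MMP24-AS1 and LOXL1-AS1 were the most highly counted of them. Of 11 for GTPase and kinase signalling genes 10 were higher (median 0.42) and none was called by edgeR. At an unadjusted p under 0.05 there was 1 (9.09%, beside 30.8% of all genes), and DESeq2 called 1 (beside 14.6%). MAPKAPK5-AS1 stood at 0.04 and RASSF8-AS1 at 0.20. By direction alone 174 of the 300 members and 7254 of the 14187 genes tested were higher.

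In the next 5 groups no member passed 0.01 in edgeR's quasi-likelihood test, and by DESeq2 only FOXD2-AS1 and FOXN3-AS1 did. At an unadjusted p under 0.05 there were 4 members for developmental factors, 2 for zinc finger genes, 6 for ubiquitin genes, 2 for metabolic genes and 0 for solute carriers, or 28.6%, 16.7%, 35.3%, 20% and 0% of each, beside 30.8% of all genes. The 14 for developmental transcription factors stood at a median log2 fold change of -0.07, among them PAX8-AS1 at -0.01 and NR2F1-AS1 at -0.15, and FOXD2-AS1 (lower) and FOXN3-AS1 (higher) past 0.05. The 12 for zinc finger genes had a median of 0.06, with ZNF667-AS1 at -0.50 and ZNF561-AS1 at 1.07. The 17 for ubiquitin and proteasome genes had a median of 0.10, with OTUD6B-AS1 at -0.83 (adjusted p = 0.0574 by edgeR's quasi-likelihood test) and PSMA3-AS1 at -0.58. The 10 in the list for mitochondrial and metabolic enzyme genes had a median of -0.05, with STARD4-AS1 (whose partner is not an enzyme gene) at 0.75 and NNT-AS1 at -0.54. The 5 for solute carriers had a median of -0.01, with SLC25A25-AS1 at -0.01 and SLC2A1-AS1 at 0.27. EIF3J-AS1 (-0.08) was the only member in the list for translation and ribosome genes, which did not hold RRS1-AS1, described above. FAS-AS1 (0.84, with 16 and 3 counts against 20, 12 and 25) was the only one in the list for p53 targets. No member belonged to a HOX gene. Of 15 better-known antisense RNAs FLG-AS1 and GAS6-AS1 were called (13.3%, beside 4.02% of all genes), and the median log2 fold change was 0.04. Of these 15, 6 (40.0%) were past 0.05 and 9 (60.0%) at an unadjusted p under 0.05, beside 13.6% and 30.8% of all genes. The list was chosen with earlier results of these data known, and nothing is read from these shares.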

How the data were processed

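Poly-A RNA of 5 RPE1 libraries was analysed, as labelled by treatment. The deposited values are unnormalized read counts of each gene, obtained by the authors with STAR on hg38 and featureCounts in Rsubread with the iGenomes annotation. No source used here gives versions, the strand setting or the treatment of multimapping reads. A table of the authors' own DESeq2 comparison was deposited as well, with mean counts, log2 fold changes and p-values, which was not used here. Total counts were 23773061 to 36725345 per library, and normalization factors 0.975 to 1.04.

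The counts were fitted with edgeR 4.0.16 in R 4.3.3 (quasi-likelihood test, TMM, default filterByExpr, minimum count 10, minimum total 15) over 14187 genes, 3 doxorubicin libraries against 2 DMSO, with Benjamini-Hochberg adjustment over all genes and a threshold of 0.01. Dividing the size of the log2 fold change by the root of the F statistic gave its standard error. DESeq2 1.42.0, limma 3.58.1 (voom), other normalization, no filter, the lower dose alone, a replicate block and leaving out each library were alternatives. The fit was tested on simulated data. CPM values are TMM-scaled. A threshold of 0.05 and a sum of at least 200 counts were further alternatives. To check for libraries deposited more than once, replicates were compared by chi-square, at 117 (DMSO) and 75.3 (0.2 μM) per degree of freedom, and all were kept. The study calls the libraries biological replicates, the labels name no separate cultures, and p-values measure only the spread between these libraries.

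Partners were matched by symbol for 295 members, by an older symbol for 2 and not found for 3. Positions were matched in RefSeq (GRCh38.p14) by symbol for 241 and by an older symbol for 59 (1 of which led to its partner's own entry and was not used), with strands from RefSeq or GENCODE. Exon overlaps came from GENCODE on GRCh37, without coordinates. Named are members past the threshold (the 12 largest rises and falls), the 10 with the highest mean CPM, examples by mean CPM of each list of partner functions, pairs in which both genes pass or move oppositely, and members at the limits of the count rule. Members past 0.05 were named as well, and 1 pair is not reported here. The members and the lists were chosen with earlier results of these data known.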

Additional observations from a re-analysis of the deposited data

How the results depend on the processing

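The number of antisense transcripts called (3) was 3 with limma voom, with another normalization and with sums of at least 200 counts, 20 with DESeq2 (beside 14.6% of all genes), 8 without the filter, 19 at an adjusted p under 0.05, 1 with the 0.2 μM libraries alone and 0 to 1 when 1 library was left out (0 without DMSO replicate 1 or DMSO replicate 2). The 9 partners called became 51 with DESeq2, 25 without the filter, 47 at 0.05, 4 with 0.2 μM alone and 1 to 7 when 1 library was left out (1 without DMSO replicate 2). With the replicate number as a block in the 4 libraries of 0.2 μM and DMSO, the calls were 15 antisense transcripts and 31 partners. The labels do not say that the numbers pair cultures, and the deviations of same-numbered libraries correlated at 0.528 over all genes and 0.373 over the members. The cause of these differences was not tested.

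The median log2 fold change of the members was 0.057 with sums of at least 200 counts and 0.073 to 0.196 when 1 library was left out. The share of pairs moving the same way stayed between 54.1% and 64.9% under the alternatives run. With a pseudocount of 2 the log2 ratio changed to 0.44 for TMPO-AS1 (from -0.25) and to -2.08 for EMC3-AS1. When 1 library was left out it ranged from 0.99 to 1.74 for NUP50-AS1. Of 473 alternatives for 43 named members, 416 kept direction and call, 30 passed the threshold newly, 15 missed it and 12 changed sign in 7 members that were not called. MAGI2-AS3 turned to 0.0083 with the replicate block. Leaving out 1 library gave ranges of -0.073 to 0.071 for PAX8-AS1, -0.57 to 0.47 for MAGI2-AS3, -0.15 to 0.36 for NUP50-AS1, -0.32 to 0.030 for NR2F1-AS1, -0.23 to 0.22 for SLC25A25-AS1, -0.23 to 0.33 for MAPKAPK5-AS1 and -0.082 to 0.40 for RASSF8-AS1.

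The median standard error of a member's log2 fold change was 0.38, beside 0.23 over all genes, 262 members were in the lowest of 3 classes by level, and 0.34 μM had 1 library.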
